A study of Mus musculus with 4 samples.

Results

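The uptake and export of bile acids and organic anions by liver cells are described here through 10 genes: Slc10a1, Slc10a2, Slco1a1, Slco1a4, Slco1b2, Abcb11, Abcb4, Abcc2, Abcc3 and Abcc4. They were taken by symbol from the 55488 genes listed in the deposited count matrices, and all 10 were found in each of the 4 matrices. The matrices come from primary liver cells of 4 untreated mice, 1 wild type (WT), 1 YAPKO, 1 TAZKO and 1 DKO, sequenced as single cells with the 10x Genomics 3′ kit v3.1. Cre driven by the albumin promoter deletes floxed alleles of Yap1 in YAPKO, of Wwtr1 (which encodes TAZ) in TAZKO and of both genes in DKO. The deletion takes place in hepatocytes and biliary epithelial cells, and other liver cells keep intact alleles. Hepatocytes and non-parenchymal cells were isolated apart and mixed before loading, so the number of cells of a class depends on the mixing. The labels give neither the sex nor the age of the mice. With 1 mouse per genotype, the effect of a genotype and the difference between single mice cannot be told apart.

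Counts are numbers of unique molecular identifiers (UMIs), each a molecule tagged near its 3′ end, and they are not divided by transcript length. In total 66259687 UMIs were counted in WT, 85989454 in YAPKO, 49022089 in TAZKO and 77411746 in DKO, over 13657, 7711, 14418 and 9188 barcodes. Cells had to have from 500 to 6000 genes detected and no more than 10% mitochondrial UMIs. A kept cell was called a hepatocyte when Alb, Apoa1, Ttr and Apoc3 together made up at least 3% of its UMIs. This gave 2254 hepatocytes of 7155 kept cells in WT (31.5%), 1159 of 6275 in YAPKO (18.5%), 3112 of 8638 in TAZKO (36.0%) and 2925 of 8294 in DKO (35.3%). Just under the threshold, with 2 to 3%, lay 97 cells of WT, 51 of YAPKO, 180 of TAZKO and 205 of DKO. Just above it, with 3 to 5%, lay 90, 255, 254 and 766 cells, which is 3.99%, 22.0%, 8.16% and 26.2% of the hepatocytes. Any pair of libraries shared between 9 and 26 kept barcodes, at most 0.363% of the smaller library.

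A level is given as UMIs per 1000000 UMIs of the same cells (CPM), with an exact 95% Poisson interval, and a ratio to WT as a log2 ratio of CPM with an exact 95% conditional binomial interval. These intervals cover counting error only. The hepatocytes held 19180146 UMIs in WT, 16905756 in YAPKO, 14371818 in TAZKO and 31451371 in DKO, with median depths of 2166.5, 6457, 1854.5 and 6475 UMIs per cell.

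Hepatocytes of different depth also differed in mitochondrial share. Cells under 4000 UMIs made up 71.5% of the hepatocytes in WT, 34.4% in YAPKO, 76.99% in TAZKO and 30.5% in DKO, and their median mitochondrial share was 0.117%, 0.146%, 0.477% and 0.158%. Cells with at least 4000 but under 10000 UMIs made up 11.5% of the hepatocytes in WT, 25.5% in YAPKO, 13.6% in TAZKO and 35.5% in DKO, where they were the largest group, with median mitochondrial shares of 0.14998%, 0.309%, 1.82% and 0.123%. Cells with at least 10000 UMIs made up 17.04%, 40.04%, 9.38% and 34.02%, with median mitochondrial shares of 3.69%, 4.39%, 4.80% and 3.23%. These deep cells held 74.7% of all hepatocyte UMIs in WT, 83.4% in YAPKO, 53.6% in TAZKO and 71.8% in DKO. Sums over all hepatocytes therefore rest mostly on deep cells in WT, YAPKO and DKO and to a lesser degree in TAZKO. Values in hepatocytes with at least 10000 UMIs, an alternative chosen after seeing the data, are given where they differ. Below, shallow means under 4000 and deep at least 10000 UMIs. Why mitochondrial share and depth went together was not tested.

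The deleted genes were read first, as a check of the labels. Yap1 in hepatocytes was 21.2 CPM (19.2 to 23.3) in WT, 4.55 (3.59 to 5.69) in YAPKO, 46.3 (42.9 to 49.998) in TAZKO and 4.67 (3.95 to 5.49) in DKO. Wwtr1 was 5.58 CPM (4.57 to 6.74) in WT, 13.5 (11.8 to 15.4) in YAPKO, 3.34 (2.46 to 4.43) in TAZKO and 2.89 (2.33 to 3.55) in DKO. Each gene was lower than in WT in the libraries labelled with its deletion, and higher in the library labelled with the deletion of the other gene alone. Most genes were higher than in WT, as given below. Yap1 in TAZKO had a log2 ratio of 1.13, where 79.5% of all genes had a lower one. Wwtr1 in YAPKO had 1.28, where 95.5% did. A 3′ tag can lie outside the deleted part, so the UMIs that remain do not count intact transcripts. Over all kept cells Wwtr1 was 49.7 CPM in WT, 48.4 in YAPKO, 40.3 in TAZKO and 36.5 in DKO. What part RNA of other cells has in the UMIs that remain was not tested.

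The hepatocyte label was checked against hepatocyte genes outside the rule. The most abundant of 6 hepatocyte markers was Vtn in WT, at 1530.3 CPM, and Cps1 in YAPKO (1695 CPM), TAZKO (2279.8) and DKO (1791). The 6 markers summed to 3296 CPM in WT, 4161 in YAPKO, 5652 in TAZKO and 4301 in DKO. The marker lists of 12 other liver cell classes had a median share of 0 over hepatocytes in every library, except that of conventional dendritic cells, with medians of 0.0133% in WT, 0.0179% in YAPKO and 0.0214% in DKO. A median of 0 does not show how many UMIs of a list the hepatocytes held together, so the sums over all hepatocytes are given too. Endothelial markers summed to 96.8 CPM in WT, 83.9 in YAPKO, 196 in TAZKO and 89.3 in DKO, T cell markers to 11.5, 5.32, 39.7 and 20.95 CPM, and B cell markers to 13.9, 13.8, 46.8 and 12.2 CPM. Kupffer cell markers summed to 76.4, 74.3, 109 and 62.0 CPM, and neutrophil markers to 238, 165, 46.2 and 42.6 CPM. The list of conventional dendritic cells was carried by Cst3, a gene of many cell types, at 227.9 CPM of 229 in WT.

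Some of the transporters are known to differ between the livers of male and female mice, so sex-linked genes were counted as well. The Y-linked gene Ddx3y was 49.6 CPM in WT, 70.0 in YAPKO, 111 in TAZKO and 76.8 in DKO, and Xist had 0, 3, 2 and 5 UMIs in hepatocytes. Male-biased liver genes were not level between the libraries. Elovl3 was 245 CPM in WT, 107 in YAPKO, 399 in TAZKO and 11.8 in DKO, and Cyp7b1 was 388, 203, 225 and 67.2 CPM. Female-biased Cyp2a4 had 1 UMI in WT, 43 in YAPKO, 3 in TAZKO and 1629 in DKO, and Cyp2b9 had 0, 5, 1 and 74. The other 5 female-biased genes examined had at most 9 UMIs in any library. Of the 6 male-biased genes examined all but Mup20 were lowest in DKO, and Mup20 was lowest in TAZKO. DKO also had the highest counts of Cyp2a4 and Cyp2b9, in a library with Y-linked transcripts and almost no Xist.

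As background, hepatocytes take bile acids and organic anions from sinusoidal blood through carriers in the basolateral membrane, chiefly the sodium-dependent carrier NTCP (Slc10a1) and the sodium-independent OATP family (Slco genes). They secrete bile acids, phospholipid and conjugated anions into the bile canaliculus through ATP-driven pumps of the ABC family. Other ABC pumps in the basolateral membrane return bile acids and conjugates to the blood and are known to be induced in cholestasis.

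Most genes had a positive ratio to WT, so the shift of all genes is given beside that of the transporters. Over all genes with at least 20 UMIs in the pair of libraries, the median log2 ratio in hepatocytes was 0.39 in YAPKO (12451 genes), 0.65 in TAZKO (12727 genes) and 0.46 in DKO (13428 genes). The 20 most abundant genes took up 36.9% of hepatocyte UMIs in WT, against 27.7% in YAPKO, 26.3% in TAZKO and 25.3% in DKO, and Mup20 alone fell from 74485 CPM in WT to 42639, 7018 and 41688 CPM. Ratios are therefore also given relative to this median, that is, with it subtracted. The 10 transporters together made up 988 CPM in WT, 1321 in YAPKO, 2210 in TAZKO and 1428 in DKO.

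At least 2-fold higher than WT were 4 of the 9 transporters with 20 UMIs in YAPKO, where 8.53% of all genes were, 6 of 10 in TAZKO against 27.4% of all genes, and 4 of 10 in DKO against 16.1%. None was 2-fold lower in any library, against 1.52%, 1.92% and 2.73% of all genes. Their median log2 ratio was 0.77 in YAPKO, 1.13 in TAZKO and 0.83 in DKO. Relative to the median of all genes, Slc10a2 alone was 2-fold higher in YAPKO (3.52% of all genes), Slco1a1, Slco1a4 and Slco1b2 were in TAZKO (7.51%), and Slco1a4, Slc10a2 and Abcc3 were in DKO (7.44%). On that scale Slco1a1 was 2-fold lower in YAPKO (3.36% of all genes), and no transporter was in TAZKO (7.43%) or DKO (5.80%). In hepatocytes with at least 10000 UMIs, 9 transporters could be compared in each library, and 2 were at least 2-fold higher in YAPKO, 4 in TAZKO and 5 in DKO, against 8.68%, 14.7% and 17.7% of all genes. The medians there were 0.68, 0.76 and 1.00, against 0.34, 0.46 and 0.46 for all genes. The count in TAZKO was 8 of 9 when 500 to 6000 was taken as a limit on UMIs, against 53.1% of all genes, and the count in DKO was 7 of 9 with a hepatocyte threshold of 10%, against 15.9%. The 10% threshold left only 233 hepatocytes in WT, 73 in YAPKO, 103 in TAZKO and 119 in DKO.

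**Figure D1:**
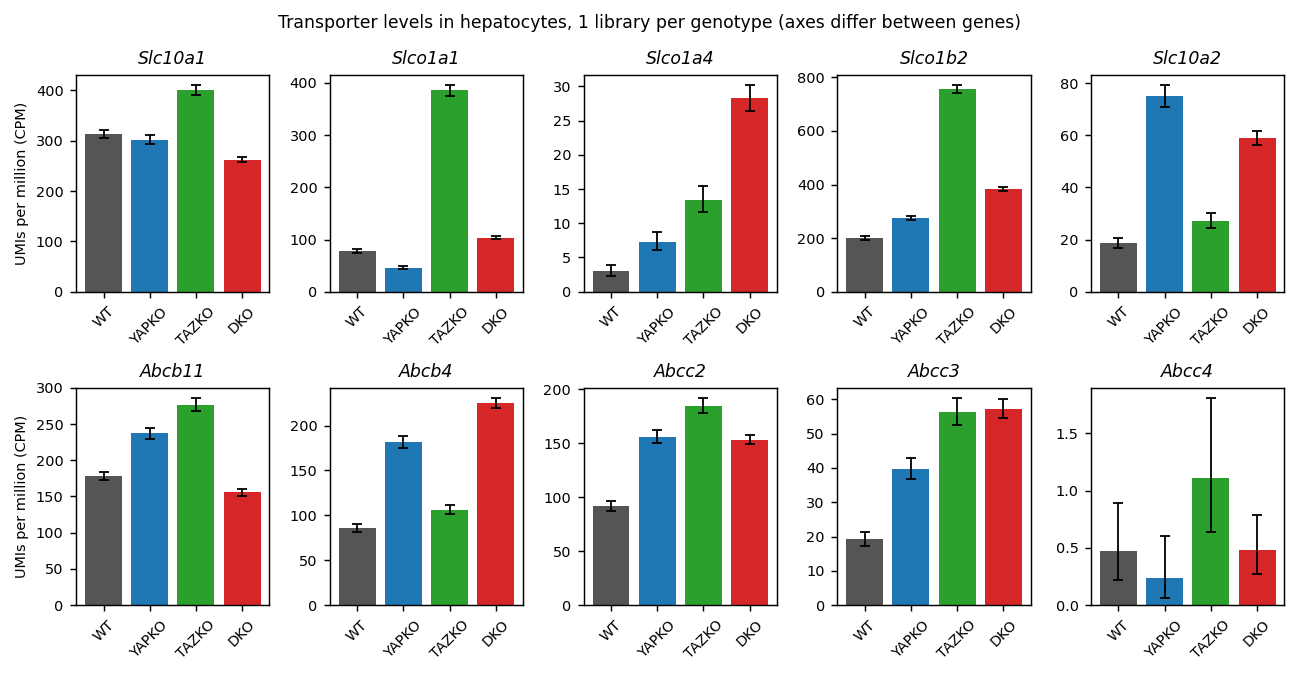
Levels of the 10 transporters in hepatocytes, in CPM, by library, with 95% Poisson intervals that cover counting error only; each panel has its own axis. Slco1a1 stands out in TAZKO at 386 CPM, Slco1a4 is lowest in WT at 3.08 CPM and highest in DKO at 28.3 CPM, and Abcc4 rests on 4 to 16 UMIs per library.

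The uptake carriers are described first. Slc10a1 (ENSMUSG00000021135, chromosome 12, 80953183 to 80968705 in GRCm38) encodes NTCP, the main sodium-dependent carrier of conjugated bile acids. It was 313 CPM (305 to 321) in WT, 302 (294 to 311) in YAPKO, 401 (390.4 to 411) in TAZKO and 263 (257 to 268) in DKO. Of the 4 uptake carriers it varied least between libraries. The log2 ratios were -0.05 (-0.10 to 0.01) in YAPKO, 0.36 (0.30 to 0.41) in TAZKO and -0.25 (-0.30 to -0.20) in DKO, and relative to the median of all genes they were -0.44, -0.29 and -0.72. Its direction in TAZKO thus depends on the scale, but in deep hepatocytes it was higher than WT on both, at 0.66 and at 0.20 relative to the median of all genes there. Only 9.88% of all genes had a lower ratio in DKO. Both the YAPKO and the DKO ratio changed sign under 1 alternative, to 0.13 with each cell weighted equally in YAPKO and to 0.15 with a hepatocyte threshold of 10% in DKO.

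The other uptake carriers are OATPs, and their genes lie side by side on chromosome 6 of GRCm38. Slco1b2 (ENSMUSG00000030236) runs from 141629518 to 141686646 on the plus strand, Slco1a4 (ENSMUSG00000030237) from 141805440 to 141856199 and Slco1a1 (ENSMUSG00000041698) from 141907282 to 141946962, both on the minus strand. Slco1b2 encodes OATP1B2, the liver carrier of unconjugated bile acids and bilirubin. Its level was 201 CPM (194.5 to 207) in WT, 275 (267 to 283) in YAPKO, 758 (743 to 772) in TAZKO and 383 (376 to 389) in DKO. WT was lowest and TAZKO highest. In log2 terms Slco1b2 differed from WT by 0.45 (0.39 to 0.51) in YAPKO, 1.92 (1.86 to 1.97) in TAZKO and 0.93 (0.88 to 0.98) in DKO, or 0.06, 1.26 and 0.47 relative to the median of all genes. In hepatocytes with at least 10000 UMIs the TAZKO ratio was 1.45 and the DKO ratio 1.00. With 500 to 6000 taken as a limit on UMIs the TAZKO ratio was 3.37, where the median of all genes was 1.10.

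Slco1a1 encodes OATP1A1, a carrier with a male bias in mouse liver. Its level of 77.7 CPM (73.8 to 81.7) in WT compares with 46.3 (43.1 to 49.6) in YAPKO, 386 (376 to 396) in TAZKO and 104 (100.2 to 107) in DKO. It was thus lowest in YAPKO and several times higher in TAZKO than in any other library. Against WT, Slco1a1 had log2 ratios of -0.75 (-0.87 to -0.62) in YAPKO, 2.31 (2.23 to 2.40) in TAZKO and 0.42 (0.33 to 0.51) in DKO. Relative to the median of all genes these became -1.14, 1.66 and -0.05. The direction in DKO was also reversed with the limits read as 500 to 6000 UMIs, and the ratio rose to 1.68 with a hepatocyte threshold of 10%.

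Slco1a4 encodes OATP1A4, a carrier of organic anions and cardiac glycosides with a female bias in mouse liver. Its level was 3.08 CPM (2.34 to 3.97) in WT, 7.28 (6.05 to 8.68) in YAPKO, 13.4 (11.6 to 15.5) in TAZKO and 28.3 (26.5 to 30.2) in DKO, from 59, 123, 193 and 890 UMIs. The 4 intervals did not overlap. DKO exceeded WT by a log2 ratio of 3.20 (2.82 to 3.61), TAZKO by 2.13 (1.70 to 2.57) and YAPKO by 1.24 (0.78 to 1.72), and by 2.74, 1.47 and 0.85 relative to the median of all genes. In DKO 98.5% of all genes had a lower ratio. The YAPKO value was -0.0043 with the limits read as 500 to 6000 UMIs, while the TAZKO and DKO values were at least 1.47 and 2.28 under each of 13 alternatives. DKO was also the library with the highest counts of Cyp2a4 and Cyp2b9 and the lowest of Elovl3 and Cyp7b1, and whether these go together was not tested. Other values did not follow that pattern. Male-biased Slco1a1 was 104 CPM in DKO against 77.7 in WT. In TAZKO, where Slco1a4 was also higher than in WT, Cyp2a4 had 3 UMIs and Elovl3 was highest, at 399 CPM.

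Promoters of the 3 neighbouring OATP genes are printed because all 3 were at least 2-fold higher in TAZKO than in WT. They are RefSeq sequences of build GRCm38.p6, from 250 bases before to 50 after the start, read 5′ to 3′ on the strand of the gene. The table held promoters of 9 of the 10 transporters, all but Abcc3. Slco1b2 is chr6:141629268-141629567 on the plus strand, Slco1a4 chr6:141856171-141856470 on the minus strand and Slco1a1 chr6:141946913-141947212 on the minus strand. Capitals mark the letters CATTCC, known as the core of sites of the TEAD partners of YAP and TAZ, and AGGTCA, a half-site of nuclear receptors, each searched on both strands (GGAATG and TGACCT on the other strand) and with no overlap between them.
Slco1b2: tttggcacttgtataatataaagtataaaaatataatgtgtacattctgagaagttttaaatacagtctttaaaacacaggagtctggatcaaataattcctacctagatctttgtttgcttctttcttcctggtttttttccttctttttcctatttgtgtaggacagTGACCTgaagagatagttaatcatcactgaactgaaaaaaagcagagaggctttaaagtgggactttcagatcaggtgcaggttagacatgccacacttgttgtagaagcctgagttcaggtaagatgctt
Slco1a4: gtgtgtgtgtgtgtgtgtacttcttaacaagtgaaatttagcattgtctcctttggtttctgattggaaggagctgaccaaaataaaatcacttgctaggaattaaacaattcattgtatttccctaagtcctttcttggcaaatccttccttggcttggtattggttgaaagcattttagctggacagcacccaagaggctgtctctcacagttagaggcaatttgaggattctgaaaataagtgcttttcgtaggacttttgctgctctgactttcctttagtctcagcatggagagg
Slco1a1: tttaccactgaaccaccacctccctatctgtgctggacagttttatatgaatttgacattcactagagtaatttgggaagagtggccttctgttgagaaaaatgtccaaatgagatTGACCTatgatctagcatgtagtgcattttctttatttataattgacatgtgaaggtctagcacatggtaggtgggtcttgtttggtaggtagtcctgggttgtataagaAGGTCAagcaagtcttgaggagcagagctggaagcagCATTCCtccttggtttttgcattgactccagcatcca
Slco1a1 held 1 match to CATTCC and 2 to AGGTCA, Slco1b2 held 1 to AGGTCA, and Slco1a4 held none. Among the 32851 promoters of the table, 14.7% held CATTCC and 16.3% held AGGTCA. Abcb11, Abcc2 and the second start of Slc10a1 each held 1 AGGTCA, and the remaining promoters of the transporters held no match. A match describes letters and is not a site.

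**Figure D2:**
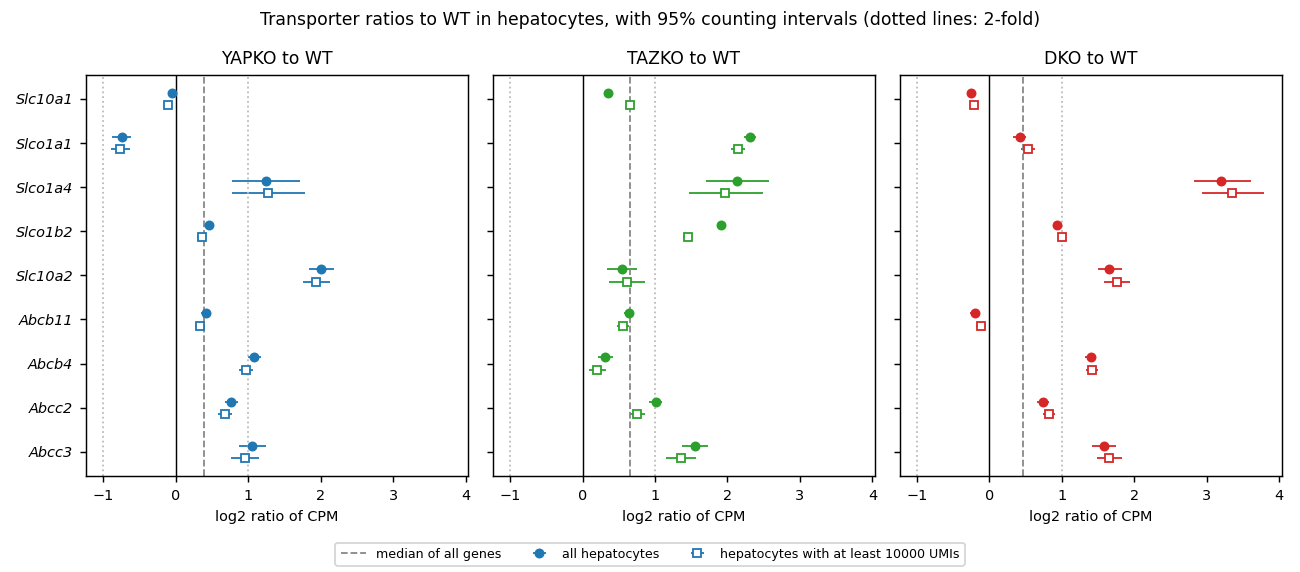
Log2 ratios of CPM to WT for the 9 transporters with at least 500 UMIs over the libraries, in all hepatocytes (filled circles) and in hepatocytes with at least 10000 UMIs (open squares), with 95% counting intervals; the dashed line is the median of all genes and the dotted lines mark 2-fold. In TAZKO, Slco1b2 is the transporter that moves most between the sets of cells, from 1.92 to 1.45.

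The depth of the hepatocytes bore on Slco1b2 and Slc10a1 in different ways. In TAZKO cells under 4000 UMIs, Slco1b2 was 965 CPM and Slc10a1 191 CPM, and in TAZKO cells with at least 10000 UMIs they were 644 and 557 CPM. The count of Slco1b2 UMIs per Slc10a1 UMI, which is a ratio of 3′ tags and not of transcripts per length, was thus 5.04 (4.68 to 5.45) in shallow and 1.16 (1.11 to 1.21) in deep TAZKO hepatocytes. In WT it was 0.607 (0.53 to 0.696) and 0.668 (0.64 to 0.698), in YAPKO 1.32 and 0.919, and in DKO 1.14 and 1.56. Shallow and deep cells differed most in TAZKO. The ratio in deep cells was lowest in WT and highest in DKO, with TAZKO and YAPKO between.

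The same ratio was read in cell classes under the hepatocyte threshold. Over all classes not named hepatocyte it was 0.516 (0.424 to 0.627) in WT, 1.52 (1.13 to 2.04) in YAPKO, 5.40 (4.77 to 6.13) in TAZKO and 1.66 (1.32 to 2.11) in DKO. In TAZKO it was 5.11 in endothelial cells, 6.41 in Kupffer cells and 4.35 in B cells. The shallow hepatocytes of TAZKO thus lay nearer to the other classes of that library than to its deep hepatocytes. What part free RNA has in the shallow hepatocytes was not tested.

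**Figure D3:**
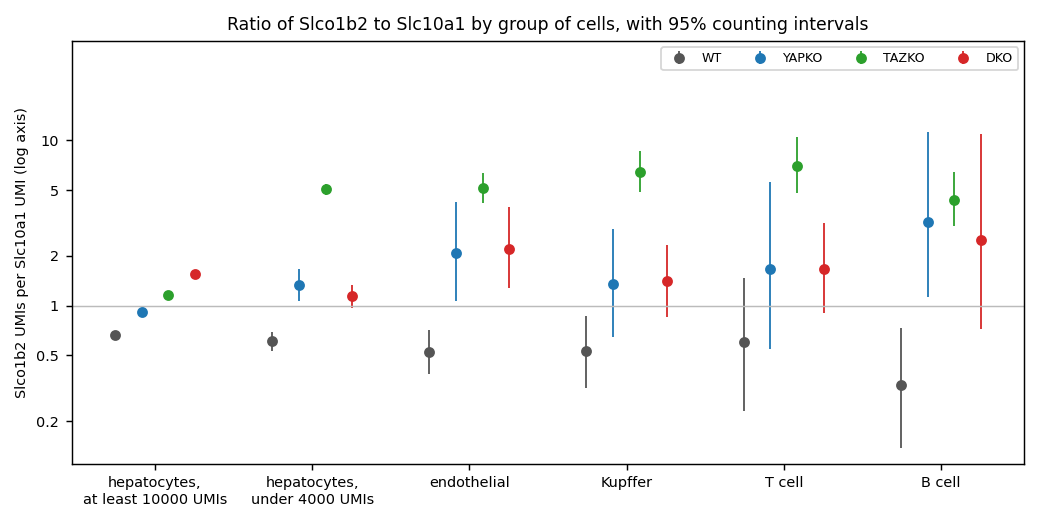
Slco1b2 UMIs per Slc10a1 UMI (log axis) in deep and shallow hepatocytes and in 4 other cell classes, by library, with 95% counting intervals. In TAZKO the deep hepatocytes lie at 1.16 and the other groups at 4.35 or higher, and WT lies below 1 in every group.

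Slc10a2 (ENSMUSG00000023073, chromosome 8, 5083219 to 5105351) encodes ASBT, the apical sodium-dependent carrier best known from the ileum and from bile duct cells. In hepatocytes it was 18.7 CPM (16.8 to 20.7) in WT, 75.1 (71.0 to 79.4) in YAPKO, 27.2 (24.6 to 30.04) in TAZKO and 58.9 (56.2 to 61.6) in DKO. YAPKO and DKO were the high ones. For Slc10a2 the log2 ratio reached 2.01 (1.84 to 2.18) in YAPKO and 1.66 (1.49 to 1.82) in DKO, and 0.54 (0.33 to 0.75) in TAZKO, with 1.61, 1.19 and -0.11 relative to the median of all genes. The YAPKO and DKO ratios stayed past 2-fold in each of 13 alternatives, and the TAZKO value turned below 0 in 1, that with the median of all genes subtracted. In biliary cells Slc10a2 was 9.81 CPM (3.60 to 21.4) in WT, 20.1 (9.17 to 38.1) in YAPKO, 21.0 (7.70 to 45.7) in TAZKO and 38.0 (7.84 to 111) in DKO, from 6, 9, 6 and 3 UMIs. These intervals overlap. Biliary markers in hepatocytes summed to 51.5 CPM in WT, 243 in YAPKO, 53.0 in TAZKO and 45.8 in DKO. Spp1 made up 226 of the 243 CPM in YAPKO, Krt7 was at 0 in TAZKO and Krt19 at 0 in DKO. Whether biliary RNA adds to Slc10a2 in hepatocytes was not tested.

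The canalicular pumps come next. Abcb11 (ENSMUSG00000027048, chromosome 2, 69238282 to 69342616) encodes BSEP, the pump that exports bile acids into bile. Its level was 178 CPM (172 to 184) in WT, 237 (230.1 to 245) in YAPKO, 277 (269 to 286) in TAZKO and 156 (151 to 160.0) in DKO. DKO was the only library below WT. Abcb11 had log2 ratios of 0.41 (0.35 to 0.48) in YAPKO, 0.64 (0.57 to 0.70) in TAZKO and -0.20 (-0.26 to -0.13) in DKO, which relative to the median of all genes were 0.02, -0.02 and -0.66. The YAPKO and TAZKO values thus lay at the median of all genes. The DKO value was 0.23 with a hepatocyte threshold of 10% and 0.00 (-0.06 to 0.07) in hepatocytes with at least 1% mitochondrial UMIs, an alternative chosen after seeing the data. The TAZKO value was 1.93 with 500 to 6000 taken as a limit on UMIs.

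Abcb4 (ENSMUSG00000042476, chromosome 5, 8893717 to 8959231) encodes MDR2, which moves phosphatidylcholine into bile. It was counted at 85.5 CPM (81.4 to 89.7) in WT, 182 (175 to 188) in YAPKO, 106 (101 to 112) in TAZKO and 225 (220.0 to 231) in DKO. As with Slc10a2, YAPKO and DKO were highest. The log2 ratio of Abcb4 was 1.09 (1.00 to 1.17) in YAPKO, 0.31 (0.21 to 0.42) in TAZKO and 1.40 (1.32 to 1.48) in DKO, and relative to the median of all genes 0.69, -0.34 and 0.93. In hepatocytes with at least 10000 UMIs the YAPKO value was 0.97, just under 2-fold, and with 500 to 6000 taken as a limit on UMIs the TAZKO value was 1.20. Of 901 windows of 100 bases at the 3′ end of Abcb4, 11 also occur in Abcb1a, and no window of the other 9 transporters was found in another gene.

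Abcc2 (ENSMUSG00000025194, chromosome 19, 43782192 to 43840740) encodes MRP2, which exports bilirubin glucuronides and other conjugates. Levels of 91.7 CPM (87.5 to 96.1) in WT, 156 (149.97 to 162) in YAPKO, 184 (177 to 192) in TAZKO and 153 (149 to 158) in DKO were found. All 3 knock-out libraries lay above WT and near one another. Ratios were 0.77 (0.68 to 0.85), 1.01 (0.92 to 1.10) and 0.74 (0.66 to 0.82) on the log2 scale in YAPKO, TAZKO and DKO, and 0.37, 0.36 and 0.28 relative to the median of all genes. In deep hepatocytes the TAZKO value was 0.76, under 2-fold, and with 500 to 6000 taken as a limit on UMIs it was 2.27.

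The basolateral export pumps come last. Abcc3 (ENSMUSG00000020865, chromosome 11, 94343295 to 94392997) encodes MRP3, an exporter of glucuronides and bile acids to the blood. It was 19.2 CPM (17.3 to 21.3) in WT, 39.8 (36.9 to 42.9) in YAPKO, 56.4 (52.5 to 60.4) in TAZKO and 57.3 (54.7 to 60.04) in DKO. WT was lowest, and TAZKO and DKO did not differ beyond their intervals, but in deep hepatocytes DKO was higher, at 72.3 CPM (68.8 to 75.9) against 58.9 (53.6 to 64.6) in TAZKO. Relative to WT the log2 ratio was 1.05 (0.87 to 1.24) in YAPKO, 1.55 (1.38 to 1.74) in TAZKO and 1.58 (1.42 to 1.74) in DKO, or 0.66, 0.90 and 1.12 with the median of all genes subtracted. In deep hepatocytes YAPKO came to 0.96, and with 500 to 6000 taken as a limit on UMIs TAZKO came to 2.64. The DKO value stayed past 2-fold in each of 13 alternatives.

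Abcc4 (ENSMUSG00000032849, chromosome 14, 118482692 to 118706219) encodes MRP4, an exporter of bile acids and cyclic nucleotides. Hepatocytes held 9 UMIs of it in WT, 4 in YAPKO, 16 in TAZKO and 15 in DKO, or 0.469 CPM (0.215 to 0.891), 0.237 (0.0645 to 0.606), 1.11 (0.636 to 1.81) and 0.477 (0.267 to 0.787). These counts do not tell any library apart from WT, while the intervals of YAPKO and TAZKO do not overlap. The interval of the TAZKO ratio of 1.25 (-0.02 to 2.61) included 0, as did that of 0.02 (-1.26 to 1.40) in DKO, and the pair of YAPKO and WT had too few UMIs for a ratio. Abcc4 is nevertheless 1 of the 6 transporters counted above as 2-fold higher in TAZKO, and its ratio there was -0.07 with each cell weighted equally.

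The share of cells with a UMI gives each cell the same weight, and it rises with depth. A Slco1b2 UMI was found in 28.4% of WT hepatocytes (Clopper-Pearson 95% interval 26.6 to 30.4), 47.9% in YAPKO (44.98 to 50.8), 81.5% in TAZKO (80.05 to 82.8) and 45.4% in DKO (43.6 to 47.2). In B cells, which are not known to express the gene, the shares were 2.09%, 3.18%, 22.0% and 3.11%, at median depths of 2944, 2882.5, 2813 and 2146.5 UMIs. With each cell thinned to 2000 UMIs and shallower cells left out, hepatocytes gave 21.3%, 25.5%, 73.8% and 27.4%. The thinned share in B cells was 0.973% in WT, 1.45% in YAPKO, 16.4% in TAZKO and 1.39% in DKO. TAZKO was highest in hepatocytes and in B cells alike. Of its B cells 94.1% lay in a cluster that held 3.11% of those of DKO, 0.455% of those of YAPKO and none of WT, and in which 3 hepatocyte markers were raised.

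Neutrophils gave Slco1b2 shares of 2.32% in WT, 1.22% in YAPKO, 41.5% in TAZKO and 2.29% in DKO, at median depths of 2323, 2396, 1990 and 1926.5 UMIs, with only 53 neutrophils in TAZKO. A Slco1a4 UMI was found in 2.44% of WT hepatocytes, 8.37% in YAPKO, 5.11% in TAZKO and 17.03% in DKO. Among B cells, 1 of 563 in TAZKO had one, and none of 430 in WT, 440 in YAPKO and 322 in DKO, which allows shares of up to 0.854%, 0.835% and 1.14% by the upper limit of the exact interval. Thinned to 2000 UMIs, the Slco1a4 shares of hepatocytes were 0.227% (0.0469 to 0.663), 0.591% (0.217 to 1.28), 2.44% (1.71 to 3.38) and 3.59% (2.91 to 4.38). The order of YAPKO and TAZKO was thus the reverse of that in the unthinned shares, and WT and YAPKO overlapped. Cells too shallow to be thinned were left out, 935 hepatocytes in WT, 144 in YAPKO, 1679 in TAZKO and 334 in DKO. What part their removal has in the change of order was not tested.

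Within each library, hepatocytes were ordered by a pericentral share, the UMIs of 8 pericentral genes (among them Cyp2e1 and Glul) over the sum of these and 8 periportal genes (among them Cyp2f2 and Pck1), in cells with at least 10 such UMIs. The upper tertile, called pericentral, is compared with the lower tertile, called periportal. These names are relative to the other hepatocytes of the same library. In WT, YAPKO and DKO the upper tertile includes cells with mostly periportal UMIs. The lower tertile of TAZKO reaches above the share at which the upper tertile of each other library starts. The tertiles are ranges of a score and not cell types, cells with equal shares stay together, and the limits were others in TAZKO: the upper limit of the lower tertile and the lower limit of the upper tertile were 0.261 and 0.400 there, against 0 and 0.0625 in WT, 0 and 0.0242 in YAPKO and 0 and 0.0367 in DKO. In TAZKO the median depth was 3694 UMIs in the lower and 1761 in the upper tertile. It was 2594 and 2217 in WT, 4344 and 5611 in YAPKO and 5186 and 5716 in DKO. The lower and upper tertiles of WT held 4867136 and 2256922 of its 19180146 hepatocyte UMIs. Those of YAPKO held 2900210 and 4238633 of 16905756. In these 2 libraries the outer tertiles thus leave out most hepatocyte UMIs. At least 2-fold higher in the pericentral tertile were 2 of 8 transporters in WT (8.41% of all genes), 4 of 9 in YAPKO (8.86%), 1 of 9 in TAZKO (5.64%) and 4 of 9 in DKO (13.3%). None was 2-fold lower, against 1.31%, 1.03%, 2.60% and 1.14% of all genes. The median log2 ratio of all genes between the tertiles was 0.20 in WT, 0.22 in YAPKO, 0.04 in TAZKO and 0.32 in DKO. In deep hepatocytes it was 0.10, 0.10, 0.08 and 0.10. The tertile ratios below are given without subtracting it. With cells split at the median share 1 was 2-fold higher in WT, 2 in YAPKO, 0 in TAZKO and 1 in DKO. With a hepatocyte threshold of 10% the numbers were 1, 2, 0 and 0, and in deep hepatocytes 2, 2, 1 and 2. Between cells with a pericentral share of at least 0.5 and at most 0.1 they were 3, 2, 1 and 2, with Abcb4 2-fold lower in YAPKO.

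Slco1b2 was the only transporter at least 2-fold higher in the pericentral tertile of every library, a call that did not hold under each alternative. It went from 125 CPM (116 to 136) in the lower to 516 (487 to 546) in the upper tertile of WT, from 97.6 (86.5 to 109.6) to 616 (592 to 640) in YAPKO, from 542 (526 to 557) to 1306 (1262 to 1352) in TAZKO and from 132 (124 to 139.9) to 701 (684 to 718) in DKO. The log2 ratios between the tertiles were 2.04 (1.90 to 2.18), 2.66 (2.48 to 2.84), 1.27 (1.21 to 1.33) and 2.41 (2.32 to 2.51). In hepatocytes with at least 10000 UMIs they were 1.25, 2.09, 1.43 and 1.63, and between cells with a pericentral share of at least 0.5 and at most 0.1, limits chosen after seeing the data, 3.03, 3.03, 1.68 and 2.65. TAZKO was thus lowest with tertiles of all hepatocytes and with fixed limits, and not in deep cells. With the fixed limits the upper group held 24 cells in WT, 93 in YAPKO, 423 in TAZKO and 49 in DKO. In TAZKO the median depth was then 12015 UMIs in the lower and 1552 in the upper group. With a hepatocyte threshold of 10% they were 0.73, 1.24, 0.62 and 0.92, and with cells split at the median share 0.94, 1.56, 0.99 and 1.33, so that the call was lost in WT and TAZKO under both and in DKO under the 10% threshold. Slco1a1 had log2 ratios between the tertiles of 1.66 (1.41 to 1.91) in WT, 4.06 (3.45 to 4.75) in YAPKO, 0.45 (0.35 to 0.55) in TAZKO and 2.06 (1.88 to 2.24) in DKO. In YAPKO its level in the lower tertile was 7.59 CPM (4.75 to 11.5) from 22 UMIs, against 126 CPM (116 to 138) in the upper tertile. In TAZKO both tertiles were high, at 357 and 488 CPM. Among deep hepatocytes the Slco1a1 ratios were 1.62, 3.62, 0.51 and 1.25 in the same order, and with a hepatocyte threshold of 10% the DKO ratio was 0.26 (-0.07 to 0.60).

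Abcc2 and Abcc3 were higher in the pericentral tertile of every library, with log2 ratios of 0.78 in WT, 0.80 in YAPKO, 0.38 in TAZKO and 1.21 in DKO for Abcc2 and of 0.68, 0.96, 0.52 and 1.03 for Abcc3. In deep hepatocytes the Abcc2 ratios were 0.32, 0.08 (-0.06 to 0.22), 0.27 and 0.43 and the Abcc3 ratios 0.47, 0.35, 0.46 and 0.12 (-0.06 to 0.30). With a hepatocyte threshold of 10% Abcc2 turned to -0.28 (-0.67 to 0.10) in YAPKO and -0.01 (-0.42 to 0.40) in TAZKO. Abcb4 was level between the tertiles in WT at -0.04 (-0.34 to 0.25), and at 0.11 in YAPKO, -0.32 in TAZKO and 0.10 in DKO. Among deep hepatocytes it was lower in the pericentral tertile of TAZKO, at -0.65 (-0.91 to -0.41), and of DKO, at -0.36 (-0.46 to -0.27), and not distinguishable from 0 in WT, at 0.06, and YAPKO, at -0.10. With the fixed limits of the pericentral share Abcb4 turned to -1.07 (-1.40 to -0.76) in YAPKO, past 2-fold lower, and to -0.77 (-1.02 to -0.52) in DKO. With a hepatocyte threshold of 10% it was at 0.76 (0.38 to 1.16) in WT. Slco1a4 had too few UMIs in WT for a ratio, and elsewhere gave 2.13 (0.76 to 3.85) in YAPKO, -0.34 (-0.99 to 0.26) in TAZKO and 0.72 (0.41 to 1.04) in DKO. The YAPKO value rests on 5 UMIs in the lower tertile. It turned to -0.81 (-2.71 to 0.58) with the fixed limits, from 4 UMIs in the upper group. With a hepatocyte threshold of 10% each tertile of YAPKO held 3 UMIs, too few for a ratio. The DKO value turned to -0.62 (-1.39 to 0.13) with the 10% threshold and was 0.02 (-0.24 to 0.28) in deep hepatocytes.

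**Figure D4:**
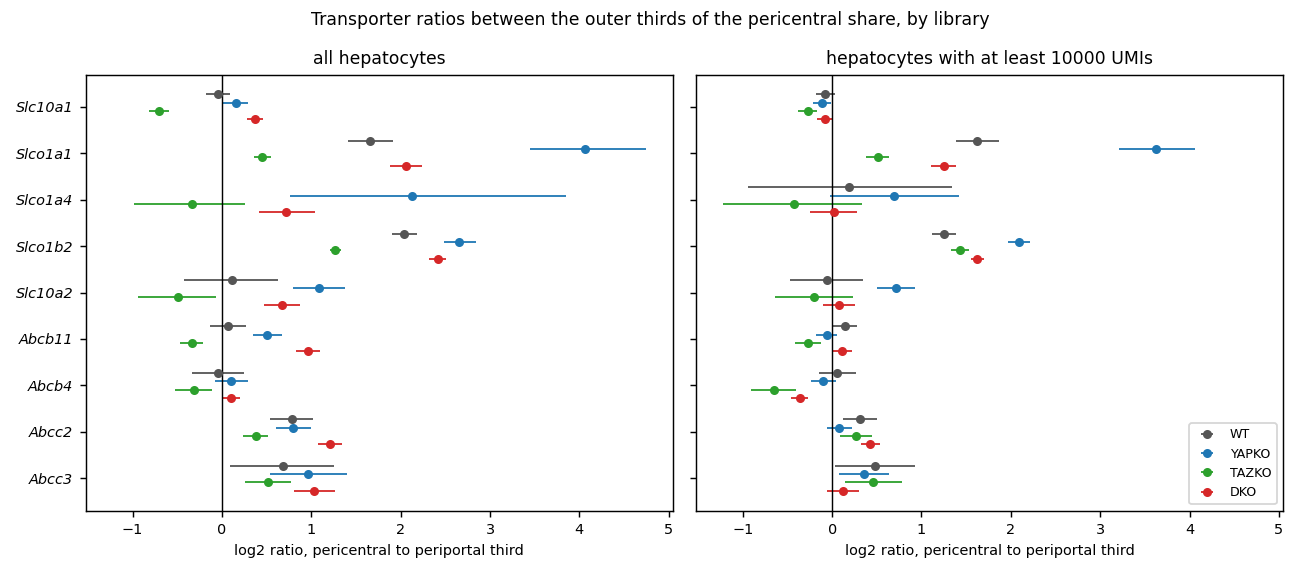
Log2 ratio of CPM between the upper (pericentral) and lower (periportal) tertile of the pericentral share for the transporters, by library, in all hepatocytes (left) and in those with at least 10000 UMIs (right), with 95% counting intervals. Slco1b2 and Slco1a1 lie above 0 in every library in both panels, with Slco1a1 in YAPKO at 4.06 and 3.62.

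Across the 12 groups made of 4 libraries and 3 tertiles, the log2 CPM of each transporter but Abcc4 was compared with that of 7807 other genes, as a description with no test, since the groups of a library share 1 mouse. The groups also differed in depth, and the median of all genes was not subtracted. What part depth and the shift of all genes have in the r values was not tested. The gene most like Slco1a1 was Amotl2 (Pearson r 0.98), followed by Cyp2c67 (0.95) and Fnbp4 (0.93). Slco1b2 was most like Ces1g (0.98), Plpp3 (0.97) and Slc17a8 (0.97), and Slco1a4 like Mtss1, Lmo7 and Rhoq (each 0.94). Slc10a1 had no gene above 0.83, the value of Cyp3a13, followed by Tmem33 (0.82) and Slc46a3 (0.81). Slc10a2 was most like Ly6e, Foxq1 and Pik3ap1 (each 0.93). Among the canalicular pumps, Abcb11 went with Scarb1 (0.99), Magt1 and Sec61a1 (each 0.98), Abcb4 with Mmp15 (0.98), Ppargc1b and Retreg1 (each 0.97), and Abcc2 with Slc22a23 (0.99), Tapbp and Adam10 (each 0.98). Abcc3 went with Dennd5b, Gsk3b and Adgrl2 (each 0.98). Between transporters, the highest r were 0.92 for Abcc2 with Abcc3 and 0.90 for Slco1a1 with Slco1b2, and the lowest was -0.31 for Slco1a1 with Slc10a2.

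Cells under the hepatocyte threshold were clustered and named from marker genes, and 13 of them in WT, 91 in YAPKO, 82 in TAZKO and 273 in DKO fell in clusters named hepatocyte and are left out of the class levels below. The endothelial cells numbered 2144 in WT, 1357 in YAPKO, 1896 in TAZKO and 1267 in DKO, and the Kupffer cells 714, 653, 1327 and 797. Abcc3 was highest in Kupffer cells of every library. In WT it was 299.9 CPM (288 to 312) in Kupffer cells, 57.0 (45.3 to 70.7) in monocytes and macrophages, 49.1 (33.1 to 70.04) in biliary cells, 19.2 (17.3 to 21.3) in hepatocytes, 17.1 (9.97 to 27.4) in plasmacytoid dendritic cells and 10.4 (8.60 to 12.5) in endothelial cells. Below these came stellate cells at 8.76, neutrophils at 8.72, T cells at 5.53 and B cells at 1.90 CPM, while conventional dendritic and NK cells had 0 UMIs, where 3 UMIs would be 2.70 and 6.54 CPM. Monocytes and macrophages did not differ from biliary cells beyond their intervals, nor did plasmacytoid dendritic cells from hepatocytes. Unnamed clusters together reached 130.3 CPM of Abcc3 in WT, and 416 of their cells over the libraries formed a cluster led by genes of dividing cells.

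In Kupffer cells, which keep intact alleles, Abcc3 was 299.9 CPM (288 to 312) in WT, 308 (298 to 319) in YAPKO, 169 (160.1 to 178) in TAZKO and 189 (179.9 to 198) in DKO. TAZKO and DKO were lower than WT there and higher in hepatocytes. Against WT the Kupffer cell log2 ratio was 0.04 (-0.03 to 0.12) in YAPKO, -0.83 (-0.92 to -0.73) in TAZKO and -0.67 (-0.76 to -0.58) in DKO, where the median of all genes in Kupffer cells was -0.07, 0.26 and 0.07. Of the TAZKO Kupffer cells 93.7% lay in a cluster that held at most 1.38% of those of any other library. In the 84 TAZKO cells of the cluster with most Kupffer cells of the other libraries, Abcc3 was 111 CPM (89.2 to 135), from 93 UMIs. The median depth of Kupffer cells was 12122 UMIs in WT, 17509 in YAPKO, 5428 in TAZKO and 11105 in DKO. Monocytes and macrophages had 78.7 CPM (72.6 to 85.2) of Abcc3 in YAPKO, 28.5 (18.1 to 42.8) in TAZKO from 23 UMIs and 53.5 (47.5 to 60.02) in DKO, and biliary cells had 51.3, 38.5 and 38.03 CPM from 23, 11 and 3 UMIs.

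Abcc4 was a gene of other cell classes more than of hepatocytes. In WT it was highest in endothelial cells, at 70.4 CPM (65.5 to 75.5), followed by stellate cells at 43.3 (34.5 to 53.6), plasmacytoid dendritic cells at 26.2 (17.1 to 38.4) and biliary cells at 26.2 (14.96 to 42.5). Kupffer cells at 19.1, neutrophils at 18.4, monocytes and macrophages at 15.3, NK cells at 15.3, T cells at 15.1, B cells at 7.59 and conventional dendritic cells at 6.29 CPM lay below, and hepatocytes were lowest at 0.469 CPM. The interval of endothelial cells lay above all others in WT, and that of stellate cells overlapped those of plasmacytoid dendritic and biliary cells. Endothelial cells had 69.7 CPM (64.8 to 74.9) of Abcc4 in YAPKO, 63.4 (57.9 to 69.4) in TAZKO and 48.0 (43.2 to 53.1) in DKO. DKO was lower than WT, by a log2 ratio of -0.55 (-0.74 to -0.37), where the median of all genes in endothelial cells was 0.05. Stellate cells had 58.9, 36.1 and 32.3 CPM in YAPKO, TAZKO and DKO, with intervals that include or overlap that of WT. Of the endothelial cells of WT 98.2% lay in 1 cluster, whose leading genes included Mup11, Mup21 and Saa1, of those of TAZKO 98.6% lay in another, and most of those of YAPKO and DKO (85.4% and 88.3%) shared a cluster.

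**Figure D5:**
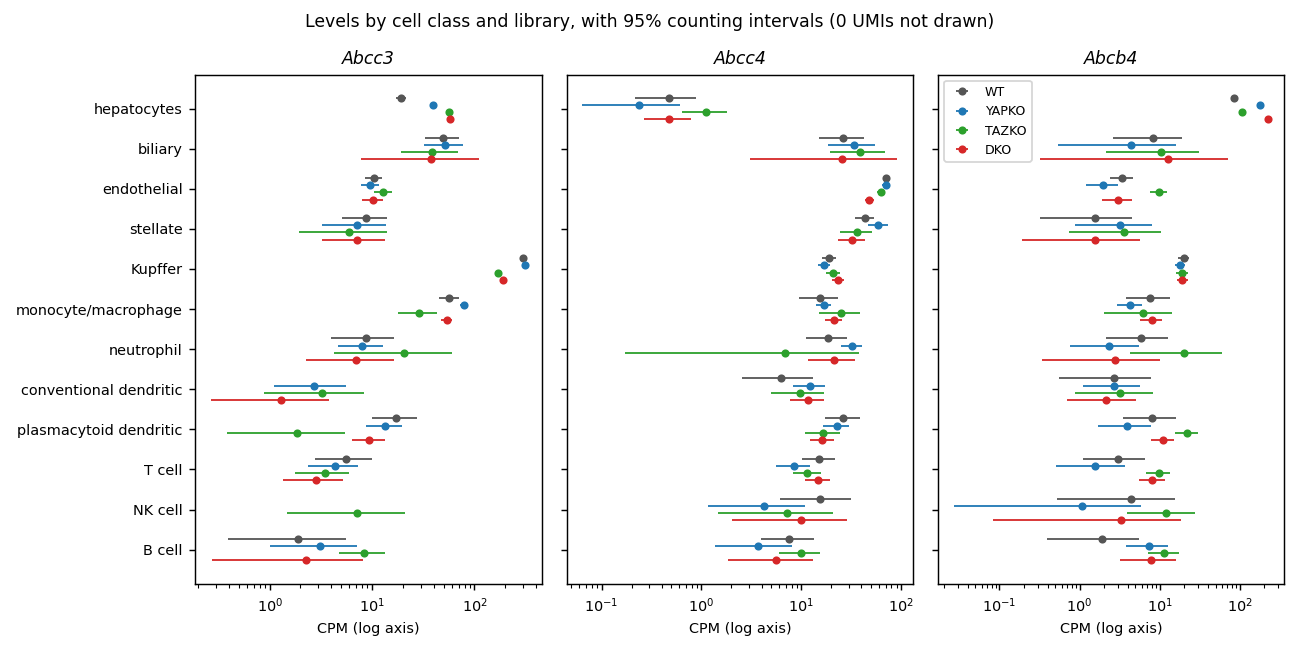
Levels of Abcc3, Abcc4 and Abcb4 by cell class and library in CPM (log axis), with 95% counting intervals; classes with 0 UMIs are not drawn. Abcc3 is highest in Kupffer cells, Abcc4 is lowest in hepatocytes and highest in endothelial cells of every library, and Abcb4 is near 20 CPM in Kupffer cells of every library.

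For the remaining transporters, levels outside hepatocytes are given as a share of the level in hepatocytes, beside the same share for the sum of 8 other hepatocyte genes. Whether free RNA gives all hepatocyte genes the same share was not tested. Abcb4 in Kupffer cells was at 20.03 CPM (17.1 to 23.3) in WT, 18.2 (15.8 to 20.9) in YAPKO, 19.1 (16.2 to 22.4) in TAZKO and 19.3 (16.6 to 22.4) in DKO. That is 23.4%, 10.04%, 17.999% and 8.57% of its level in hepatocytes, against 2.17%, 0.853%, 3.18% and 2.15% for the reference genes. In WT endothelial cells Slco1b2 was 6.07 CPM, 3.02% of its hepatocyte level, against 5.17% for the reference genes, and Slc10a1 was 11.5 CPM, 3.68%. In TAZKO endothelial cells Slco1b2 was 72.1 CPM (66.2 to 78.4), or 9.52% of its hepatocyte level against 5.11% for the reference genes, Slco1a1 was 28.7 CPM (7.45%), Abcb11 23.6 CPM (8.52%) and Abcc2 15.8 CPM (8.58%). Slc10a1 in the same cells was 14.1 CPM, or 3.52%. At a Leiden resolution of 1 a cluster with 455 TAZKO cells, led by genes that include Cyp2e1 and Slco1b2, was named hepatocyte, and in the 1475 TAZKO cells then named endothelial Slco1b2 was 51.6 CPM (46.2 to 57.4), or 6.81% against 3.15%. What part cells with hepatocyte RNA have in these values was not tested. At the lower resolution, Slco1b2, Slco1a1, Abcb11 and Abcc2 lay above the share of the reference genes in TAZKO endothelial cells and Slc10a1 below it. Slco1a4 had at most 8 UMIs in any class other than hepatocytes.

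Among 35 other genes of bile acid and organic anion transport, those with 20 UMIs numbered 30 in YAPKO, 31 in TAZKO and 32 in DKO. At least 2-fold higher than WT were 2, 9 and 6 of them, against 8.53%, 27.4% and 16.1% of all genes, and 2-fold lower 0, 1 and 1, against 1.52%, 1.92% and 2.73%, with median log2 ratios of 0.51, 0.88 and 0.60. Relative to the median of all genes, 2, 2 and 4 were higher, against 3.52%, 7.51% and 7.44% of all genes, and 1, 3 and 2 lower, against 3.36%, 7.43% and 5.80%. By role, 2 of 9 other canalicular genes were 2-fold higher in YAPKO, 4 of 9 in TAZKO and 2 of 9 in DKO. Of the 8 scaffold and trafficking genes 2 were in TAZKO and none in the other libraries, and of 8 nuclear receptors none in YAPKO, 2 in TAZKO and 3 in DKO. Other basolateral genes were 2-fold higher in none of 5 in YAPKO, 1 of 6 in TAZKO and 1 of 7 in DKO. Slco1a6, Vdr and Gpbar1 had 0 UMIs in the hepatocytes of every library.

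The drug efflux pump genes Abcb1b and Abcb1a had few UMIs in WT hepatocytes. Abcb1b had 22 UMIs in WT, 133 in YAPKO, 68 in TAZKO and 436 in DKO, with log2 ratios of 2.78, 2.04 (1.33 to 2.81) and 3.60 (2.98 to 4.28). Abcb1a had 8 UMIs in WT, 31 in YAPKO (2.14, 0.98 to 3.47), 14 in TAZKO (1.22, -0.13 to 2.68) and 242 in DKO (4.21, 3.20 to 5.43). Nr1i3, which encodes the xenobiotic receptor CAR, was 5.11 CPM in WT, 7.16 in YAPKO, 51.6 in TAZKO and 21.0 in DKO, a log2 ratio of 3.34 (3.03 to 3.66) in TAZKO and 2.04 (1.73 to 2.36) in DKO. Other genes at the upper end were Nr5a2 (0.90) and Nr1i2 (0.82) in YAPKO and the bile acid receptor gene Nr1h4 (1.18) in TAZKO.

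At the lower end, Abcg2, a canalicular pump of organic anions, fell in all 3 libraries, from 90.6 CPM in WT to 71.1 in YAPKO, 56.7 in TAZKO and 40.9 in DKO, with log2 ratios of -0.35 (-0.46 to -0.24), -0.68 (-0.80 to -0.56) and -1.15 (-1.25 to -1.04). Nr0b2, which encodes the repressor SHP, had ratios of -0.85 (-0.99 to -0.72) in YAPKO, -0.45 (-0.58 to -0.32) in TAZKO and -0.31 (-0.42 to -0.21) in DKO. Slc51b, a subunit of the basolateral bile acid exporter, had 106 UMIs in WT and 21 in TAZKO (-1.92, -2.67 to -1.23), but was level in YAPKO, at 0.05 (-0.36 to 0.47), and higher in DKO, at 0.70 (0.38 to 1.04). In DKO the uptake carrier gene Slc22a7 was at -0.96 (-1.18 to -0.73), against 0.06 (-0.16 to 0.28) in YAPKO and 0.99 (0.80 to 1.19) in TAZKO. Abcg5 in YAPKO was at 0.01 (-0.29 to 0.31).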

How the data were processed

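The count values are UMI counts per gene and barcode made by the authors with Cell Ranger, deposited as matrices for mm10; their notes give version 6.0.1 and the file headers 4.0.0. The notes do not say whether doublets were removed before the files were deposited. The 10 transporters, the other gene lists and the alternatives of the analysis were chosen with earlier results of these data known. UMIs of a gene were summed over the hepatocytes of a library and divided by their total. Ratios needed 20 UMIs in the pair of libraries. Besides the 10 transporters, genes are named when they were among the 3 largest ratios in either direction of the 35 other transport genes with at least 50 UMIs, or among the 3 most alike of a transporter, or are marker, deleted or sex-linked genes. No cell was removed as a doublet; leaving out the top 8% of Scrublet scores in each library is an alternative. Alternatives on depth (at least 10000 UMIs), on mitochondrial share (at least 1%) and on fixed limits of the pericentral share were added after seeing the data. Clusters come from 2000 variable genes, 20 components and the Leiden method. Python 3.11.15, numpy 2.4.6, scipy 1.17.1, pandas 2.3.3, scanpy 1.11.5, igraph 0.11.9, scikit-learn 1.9.0 and matplotlib 3.10.9 were used.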

Additional observations from a re-analysis of the deposited data

Results flagged for a closer look

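Abcc3 had ratios to WT of opposite direction in hepatocytes and in Kupffer cells of the same library. In TAZKO the log2 ratio was 1.55 in hepatocytes and -0.83 in Kupffer cells, and in DKO it was 1.58 and -0.67. In TAZKO monocytes and macrophages the Abcc3 ratio was -0.998, against the same 1.55 in hepatocytes. The TAZKO Kupffer cells lay mostly in a cluster of their own. The difference between the cell classes was not tested.

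For 3 transporters the log2 ratio between the pericentral and the periportal tertile had opposite directions in different libraries, with intervals that leave out 0 on either side. Slc10a1 was at 0.15 in YAPKO and 0.37 in DKO and at -0.70 in TAZKO. Slc10a2 was at 1.08, 0.67 and -0.49, and Abcb11 at 0.51, 0.96 and -0.34, in the same order. The median of all genes between the tertiles was 0.22 in YAPKO, 0.32 in DKO and 0.04 in TAZKO. Slc10a1 thus lay near that median in YAPKO and DKO, and below it in TAZKO. In hepatocytes with at least 10000 UMIs the values for Slc10a1 were -0.11, -0.08 and -0.27, for Slc10a2 0.71, 0.08 and -0.20, and for Abcb11 -0.06, 0.11 and -0.27. The tertiles of TAZKO cover other ranges of the pericentral share. The difference between libraries was not tested.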

How the results depend on the processing

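Each genotype is 1 mouse and 1 library, the intervals cover counting error only, and the hepatocytes of a library differ in depth. Of the ratios in hepatocytes under the alternatives, 195 stayed inside the 95% interval of the value given, 178 moved outside it and 1 past 2-fold with an interval above 0 changed sign: Slco1a4 in YAPKO to -0.0043 when 500 to 6000 is taken as a limit on UMIs. Abcc4 in TAZKO, past 2-fold with an interval that includes 0, also changed sign, to -0.07 with each cell weighted equally. Of the tertile ratios 53 stayed inside, 85 moved and 2 past 2-fold were counted as changing sign, each for Slco1a4 in YAPKO. With fixed limits of the pericentral share its ratio turned to -0.81. With a hepatocyte threshold of 10% the value was -0.13 (-3.03 to 2.77), from 3 UMIs in each tertile. That is too few for a ratio, so the change of sign at 10% cannot be read as a reversal. Of the class levels 48 held and 8 moved, of the background shares 2 held and 4 moved, and of the counts and medians 94 held and 29 moved.

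The median ratio of the transporters is given where it left the median of their interval limits, and the number past 2-fold where it moved by over 1.5 times, with the share of all genes in brackets. With 500 to 6000 UMIs it was 2.27 in TAZKO and 0.77 in DKO, with 2 higher (20.3%) and 1 lower (3.1953%) in YAPKO. Relative to the median of all genes it was 0.37 in YAPKO, 0.48 in TAZKO and 0.37 in DKO, with 1 higher (3.52%) and 1 lower (3.36%) in YAPKO and 3 higher (7.51%) in TAZKO. With each cell weighted equally it was 0.99 in YAPKO and 1.60 in TAZKO, with 1 lower (5.18%) in DKO. With a hepatocyte threshold of 10% it was 0.57 in YAPKO and 1.4975 in DKO, with 1 lower (1.35%) in YAPKO and 7 higher (15.9%) in DKO. With a threshold of 2% it was 0.59 in YAPKO and 0.76 in DKO, with 1 lower (2.97%) in YAPKO. Without mitochondrial and the 20 most abundant genes in the total it was 0.58 in YAPKO and 0.58 in DKO, with 2 higher (5.32%) in YAPKO. With at least 1% mitochondrial UMIs it was 0.62 in YAPKO and 0.69 in TAZKO, with 2 higher (7.33%) in YAPKO. Thinned to 2000 UMIs it was 1.89 in TAZKO. With at least 10000 UMIs 2 (8.68%) were higher in YAPKO. At 1.5-fold 1 was lower in YAPKO, where the share of all genes was not counted. Inside these limits, the median in DKO was 1.14 with a threshold of 5% and 1.15 with at least 1% mitochondrial UMIs, and in TAZKO 0.76 with at least 10000 UMIs. The number higher was between 3 and 8 in TAZKO and between 3 and 7 in DKO at 2-fold. All genes moved too: their median in TAZKO, 0.65 as given, was 1.10 with 500 to 6000 UMIs, 0.91 with equal weights and 0.88 thinned, and 53.1%, 46.4% and 44.5% of them were 2-fold higher. In DKO their median was 0.42 with the 10% threshold. The cause was not tested. No paired analysis was possible because each mouse gave 1 library of 1 genotype.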

Other observations

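The levels of the transporters in shallow and deep hepatocytes differed by library. In WT, YAPKO and DKO each transporter but Abcc4 was lower in cells under 4000 UMIs than in cells with at least 10000 UMIs. Of these, Abcb11 lay lowest, with log2 ratios of -1.39, -2.03 and -2.16. Nearest to 0 were Slco1a4 in WT, Slco1b2 in YAPKO (-0.61) and Slc10a1 in DKO (-1.07). The median of all genes was -0.46, -0.36 and -0.42. Slco1a4 in WT, at -0.45 (-1.74 to 0.64), lay at that median with an interval that includes 0, and Abcc4 had too few UMIs to compare. In TAZKO, where the median of all genes was 0.01, the Abcb11 ratio was -0.36, Slco1b2 was higher in the shallow cells, at 0.58, and Slc10a1 lower, at -1.54. Malat1, a nuclear RNA, was 3085 CPM in shallow and 3238 CPM in deep hepatocytes of WT, and 7320 and 5431 CPM in TAZKO. In YAPKO it was 1141 and 3689 CPM, and in DKO 821 and 4529 CPM.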
